A study of Brassica rapa subsp. pekinensis with 6 samples.

Results

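Heat shock genes of Chinese cabbage were examined in developing flower buds. The 5 genes were *Bra018216*, *Bra002539*, *Bra006697* and *Bra020295*, which the study names as heat shock protein (HSP) genes, and *Bra033468*, which its gene descriptions call *HSFA7A*. They are 5 of the 35616 genes with at least 1 read in the series. They were selected on their fold change and adjusted p between *fsm* and ‘FT’, since the study took them from its list of differentially expressed genes in these libraries, so their differences between the lines are given here as a description, without a test. Flower buds at the full-bloom stage were compared between the wild-type line ‘FT’, a doubled haploid line, and the female-sterile mutant *fsm*, which was obtained from ‘FT’ by chemical mutagenesis of isolated microspores. Each line had 3 libraries, F1, F2 and F4 for ‘FT’ and M1, M2 and M3 for *fsm*. A biological replicate was a mixture of flower buds from several plants of 1 line, and the methods also state that RNA of the replicates was pooled before library construction, so the spread between libraries may be partly technical. No batch of extraction or sequencing and no temperature at sampling is given for either line, so these and the line cannot be told apart. In whole buds, fewer cells of a type and less RNA per cell cannot be told apart either.

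Small HSPs are chaperones that need no ATP. They bind proteins that begin to unfold and keep them soluble until HSP70 and HSP101, which use ATP, refold them or pull them out of aggregates. Their genes are known for very low transcript levels in most unstressed tissues and for a steep rise in heat, which is driven by heat shock factors (HSFs) that bind heat shock elements in promoters. HSFA7A is known from *Arabidopsis* as a class A, activating HSF whose own gene responds to heat. Small HSP genes are also known to be transcribed in reproductive organs without heat.

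The deposited counts summed to between 24.99 M and 25.40 M reads (M, mega) in the ‘FT’ libraries and between 28.12 M and 29.37 M reads in the *fsm* libraries. A count of 3 reads, taken in each library as the floor of detection and in folds against a line without reads, corresponded to 0.115 to 0.118 normalized counts per 1 M reads (CPM) in ‘FT’ and to 0.105 to 0.108 CPM in *fsm*. The 4 HSP genes have coding lengths of 459 to 483 bases, within the range of 423 to 675 bases of the other small HSP genes examined here. The description of *Bra018216* gives no size class, whereas the other 3 are described as HSP18, and their classes were not checked on protein sequences here. *Bra033468* has a coding length of 381 bases, shorter than the 747 and 810 bases of the other genes described as *HSFA7A*, *Bra012829* and *Bra012828*. Reads of near-identical copies can be split, lost or counted more than once, so the level of a single gene of these families is less certain than the sum over the family.

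All 5 genes were close to the limit of detection in ‘FT’ and well above it in *fsm*, and in each of them the 3 *fsm* libraries lay above the 3 ‘FT’ libraries without overlap, as in 37.5% of all genes. Together, the 4 HSP genes held 12 reads in F1, 16 in F2 and 13 in F4, against 43604 in M1, 41279 in M2 and 43058 in M3. In *fsm* this made up 0.149%, 0.145% and 0.153% of the reads of a library. The summed reads, scaled to library size, were 2880-fold higher in *fsm*, with an exact 95% interval of 2120 to 4010 that covers counting error only. This and every other interval given here leaves out the spread between plants and between library preparations.

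*Bra018216* was the HSP gene with the most reads. Its counts were 4 in F1, 5 in F2 and 11 in F4, against 29375 in M1, 27169 in M2 and 27677 in M3. Scaled to gene length and library total, the deposited RPKM (reads per kilobase of gene and per 1 M mapped reads) was 0.332, 0.421 and 0.929 in ‘FT’ and 2110, 2011 and 2077 in *fsm*. The ‘FT’ libraries thus spread over a wider relative range than the *fsm* libraries, with F4 the highest. The mean RPKM in *fsm* was 2066 ± 50.5 (SD, n = 3), which placed the gene 13th among the 34211 genes with reads in *fsm*. The log2 fold change from edgeR's fit over all genes was 11.90 ± 0.121 (SE), and the read ratio was 3880 (counting interval 2520 to 6360).

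*Bra002539*, described as HSP18, was next in level. With 1 read in F1, 2 in F2 and 0 in F4 it was below the floor in each ‘FT’ library, whereas M1, M2 and M3 held 9819, 9490 and 10223 reads. The RPKM in the *fsm* libraries was 692, 689 and 753, with a mean of 711 ± 35.8 (SD, n = 3), the 97th highest of the line. M3 was the highest library, and M1 and M2 were nearly equal. The fitted log2 fold change was 12.99 ± 0.157 (SE). With 3 reads in all of ‘FT’, the read ratio of 9080 had a counting interval from 3110 to 44000, and the log2 fold change was 13.84 without F2.

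*Bra006697* and *Bra020295*, also described as HSP18 and both of 459 bases, had similar counts in ‘FT’ and different counts in *fsm*. For *Bra006697* there were 3 reads in F1, 5 in F2 and 2 in F4, and 3746 in M1, 4011 in M2 and 4438 in M3. Its RPKM in *fsm* was 278, 307 and 344, with a mean of 310 ± 33.1 (SD, n = 3), its log2 fold change was 10.09 ± 0.156 (SE) and its read ratio was 1130 (counting interval 612 to 2350). For *Bra020295* there were 4 reads in F1, 4 in F2 and 0 in F4, and 664 in M1, 609 in M2 and 720 in M3. Its RPKM in *fsm* was 49.3, 46.6 and 55.8, with a mean of 50.5 ± 4.75 (SD, n = 3), its log2 fold change was 7.78 ± 0.228 (SE) and its read ratio was 230 (counting interval 116 to 533). *Bra020295* was thus the lowest of the 5 genes in *fsm*, and even so it lay above 87.6% of the genes with reads in that line.

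*Bra033468*, the *HSFA7A* gene, had no read in F1, F2 or F4. M1, M2 and M3 held 892, 965 and 1059 reads, which gave an RPKM of 79.7, 88.9 and 98.9, with a mean of 89.1 ± 9.57 (SD, n = 3). Set against the floor of 3 reads in each ‘FT’ library, it was at least 299-fold higher in *fsm*. The fitted log2 fold change of 12.87 depends on the prior count that the fit adds to a count of 0, and it is not a measure of size.

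**Figure D1:**
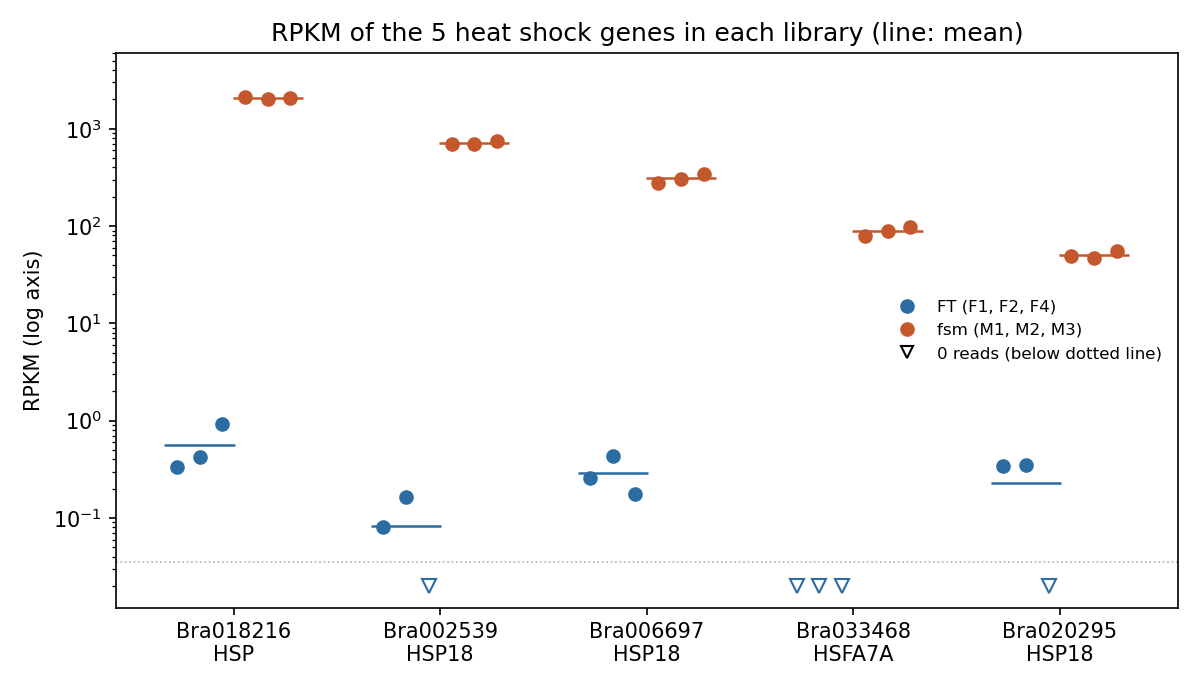
RPKM (log axis) of the 5 heat shock genes in each library, in order of their mean in *fsm*. Points are libraries, lines are means over the 3 libraries of a line, and open triangles below the dotted line are libraries with 0 reads. The *fsm* libraries lie between 46.6 and 2110 RPKM, and no ‘FT’ library exceeds 0.929 RPKM.

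All 5 genes passed the threshold by which the study defined differential expression (adjusted p of at most 0.001 and a log2 fold change of 4 or more in size, here in edgeR's quasi-likelihood test). This follows from how they were chosen and is no result about them. The same threshold in the upward direction was passed by 2.91% of all genes, and a log2 fold change of at least 1 with the same adjusted p by 18.7%. The median log2 fold change was 11.90 over the 5 genes, or 10.09 with *Bra033468* at its lower bound, and −0.02 over all genes. A larger log2 fold change was found in 2 genes for *Bra002539*, 7 for *Bra018216*, 27 for *Bra006697* and 112 for *Bra020295*.

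Per gene length, the order of the levels in *fsm* was *Bra018216*, *Bra002539*, *Bra006697*, *Bra033468* and *Bra020295*. No neighbours in this order overlapped in any library. *Bra018216* was 2.90 times as high as *Bra002539* in mean RPKM, and *Bra002539* was 2.30 times as high as *Bra006697*. The step from *Bra006697* to the *HSFA7A* gene was 3.47-fold, and the step from there to *Bra020295* was 1.76-fold. From the highest to the lowest HSP gene the mean RPKM differed 40.9-fold. In ‘FT’ no order could be read, since the 5 genes had between 0 and 11 reads in a library.

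The 4 HSP genes kept nearly the same proportions in the 3 *fsm* libraries. *Bra018216* supplied 67.4%, 65.8% and 64.3% of their summed reads in M1, M2 and M3. *Bra002539* supplied 22.5%, 23.0% and 23.7%, *Bra006697* 8.59%, 9.72% and 10.3%, and *Bra020295* 1.52%, 1.48% and 1.67%. The largest shift between libraries was therefore a few percentage points, away from *Bra018216* in M2 and M3.

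Among the *fsm* libraries, M3 was the highest in 4 of the 5 genes and M1 in *Bra018216*. Over the 16090 genes with a mean of at least 10 CPM, M3 was the highest in 25.5%, M1 in 38.1% and M2 in 36.5%, and over the 38 heat shock and chaperone genes at this level M3 was the highest in 34.2%. Normalized counts of *Bra006697* stood at 90.5%, 99.4% and 110% of their *fsm* mean in M1, M2 and M3, where the standard error of counting was 1.48 to 1.65 percentage points. *Bra033468* had nearly the same profile, from 90.1% in M1 to 109.9% in M3, with a counting error of 3.02 to 3.38 points. *Bra018216* and *Bra002539* stayed within 97.2% and 104.8% of their means in all 3 libraries.

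The coefficient of variation between the *fsm* libraries was 2.67% for *Bra018216*, 4.16% for *Bra002539*, 8.61% for *Bra020295*, 9.80% for *Bra006697* and 9.86% for *Bra033468*. Counting alone would give 0.597%, 1.01%, 3.88%, 1.57% and 3.21%, so each gene spread more than its counts require. Genes within 0.5 log2 units of the same level had median coefficients of 4.20% for *Bra018216* and 4.73% for *Bra002539*, above those of the genes themselves. The coefficient was larger than in 90.3% of genes of like level for *Bra006697*, 83.2% for *Bra033468* and 70.2% for *Bra020295*. All of these differences within *fsm* were small beside the differences between the lines.

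**Figure D2:**
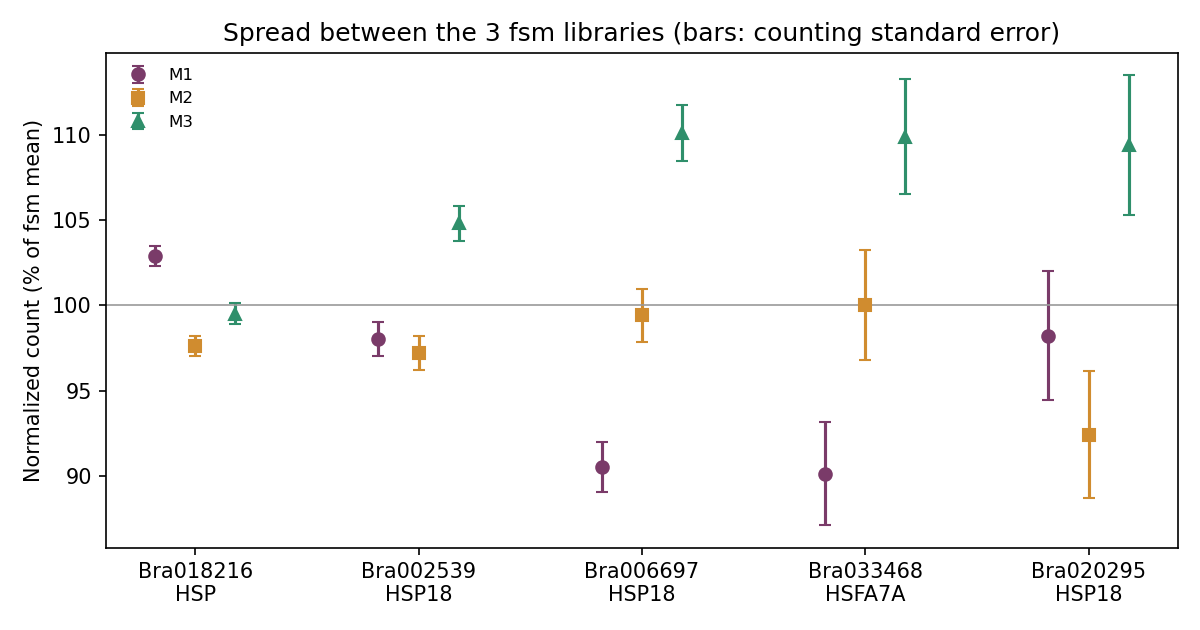
Normalized counts of the 5 genes in M1, M2 and M3 as a percentage of the gene's mean over the 3 *fsm* libraries. Symbols are libraries and bars are the standard error of counting. M3 is the highest in 4 genes, M1 is the highest in *Bra018216*, and *Bra006697* and *Bra033468* range from about 90.5% and 90.1% to 110% of their means.

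The share of the coding length covered by reads, which the authors deposited beside each count, differed between the genes in a way that their read numbers did not. *Bra018216* was covered over 473 of its 474 bases in each *fsm* library. *Bra002539* was covered over 431 of its 483 bases in M1, M2 and M3 alike, which left 52 bases without a read in each library despite its high level. Of the genes with an RPKM within 0.5 log2 units, only 1.63% to 2.78% had coverage this low or lower, and their median was 99.8%.

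*Bra006697* was covered over 377, 438 and 377 of its 459 bases in M1, M2 and M3, and *Bra020295* over 373, 373 and 377. In M1 and M3, *Bra006697* thus had 82 bases without a read, and in M2 it had 21. Of the genes of like RPKM, 2.62% to 8.72% were covered as little as *Bra006697* and 2.70% to 3.05% as little as *Bra020295*. *Bra033468* was covered over 368 to 374 of its 381 bases, a share that 12.4% to 18.5% of like genes did not exceed. In ‘FT’, with at most 11 reads in a library, the covered share where a gene had reads was 25.9% to 86.3%. The 3 HSP18 genes thus had 21 to 86 bases without a read in the *fsm* libraries, against 7 to 13 in *Bra033468* and 1 in *Bra018216*. The deposited share does not show where in a gene these bases lie or whether they adjoin, and sequence differences from the reference and reads shared between copies were not tested.

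**Figure D3:**
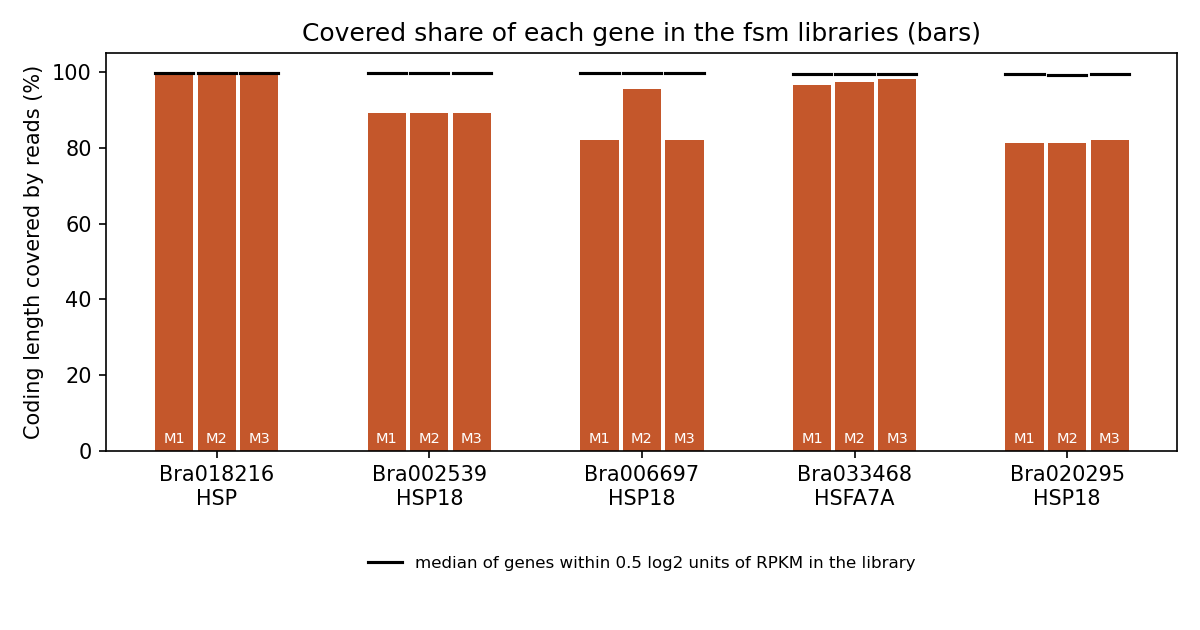
Share of the coding length covered by at least 1 read (percent, axis from 0) for the 5 genes in M1, M2 and M3. Bars are libraries, and black lines are the median of genes within 0.5 log2 units of RPKM in the same library. *Bra018216* reaches 99.8%, whereas *Bra002539* stays at 89.2% and *Bra020295* at 81.3% to 82.1%.

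The study's list of differentially expressed genes names 6 further small HSP genes. That list was drawn from these libraries, so the direction of its genes is no independent evidence, and the same holds for the HSFs and other chaperones taken from it below. All 6 were higher in *fsm*, with log2 fold changes from 6.02 to 12.00 and a median of 9.01. Of all genes, 2.91% were higher past a log2 fold change of 4 at an adjusted p of at most 0.001. The 3 class II genes were *Bra006137*, *Bra023360* and *Bra008920*. *Bra006137* had 6, 6 and 10 reads in the ‘FT’ libraries against 35550, 30652 and 33462 in those of *fsm*. Its mean RPKM in *fsm* was 2739 ± 172 (SD, n = 3), above that of *Bra018216*. *Bra023360* (log2 fold change 11.52, or 12.57 without F1) reached an RPKM of 1305 and *Bra008920* (log2 fold change 8.64) one of 579.

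Small HSP genes outside the list were not counted. Of the 10 examined, the class I gene *Bra018383* had the highest level in both lines. In ‘FT’ it already had 431, 379 and 401 reads, many times those of the 4 HSP genes together, and in *fsm* it had 46351, 42219 and 44184. From a mean of 34.1 in ‘FT’ its RPKM stood at 3277 ± 115 (SD, n = 3) in *fsm*, and the read ratio was 101 (counting interval 95.6 to 107). *Bra026317*, which encodes a chloroplast small HSP, had 8, 8 and 7 reads in ‘FT’ and a log2 fold change of 9.38. *Bra000703*, described as an HSP of another size class, had 110, 78 and 123 reads in ‘FT’ and the lowest log2 fold change of the group, 6.02. A background of transcripts in ‘FT’ was thus measured for *Bra018383* and *Bra000703*, whereas *Bra018216* had 4 to 11 reads in each ‘FT’ library and the 3 HSP18 genes had 0 to 5. Over the 10 small HSP genes examined, 596, 500 and 581 reads in ‘FT’ stood against 166815, 148649 and 158990 in *fsm*. Their reads made up 0.568%, 0.522% and 0.565% of the *fsm* libraries, and the read ratio was 261 (counting interval 249 to 274).

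*Bra033468* was the lowest of 3 genes described as *HSFA7A*. *Bra012828* had 0, 2 and 1 reads in ‘FT’ and 7022, 6521 and 6841 reads in *fsm*. *Bra012829* had 1, 2 and 0 reads in ‘FT’ and 9272, 8999 and 9597 reads in *fsm*. The 3 genes were thus alike in being at or under the floor in every ‘FT’ library and differed in level in *fsm*, with a mean RPKM of 434 for *Bra012829*, 293 for *Bra012828* and 89.1 for *Bra033468*. *Bra033468* supplied 5.19%, 5.85% and 6.05% of their reads in M1, M2 and M3, or 9.995%, 11.2% and 11.6% of their RPKM. Over the 3 genes, 6 reads in ‘FT’ stood against 51168 in *fsm*, a read ratio of 7870 (counting interval 3610 to 21400). The log2 fold changes of *Bra012828* (12.45) and *Bra012829* (12.90) were 13.30 and 13.76 without F2.

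Beside *Bra033468*, all 11 HSF genes on the list were higher in *fsm*, with log2 fold changes of 5.07 to 12.90. Their median was 7.04, or 6.40 with *HSFA6A* at its lower bound. A log2 fold change of at least 4, with an adjusted p of at most 0.001, was found upward in 2.91% of all genes. HSF genes outside the list were not counted. *HSFA2* (*Bra000557*), which in *Arabidopsis* sustains the heat response, was the most abundant of the 11 genes. Its reads were 11, 20 and 15 in ‘FT’ against 30867, 29943 and 30420 in *fsm*, and its mean RPKM in *fsm* was 1014 ± 17.1 (SD, n = 3). *HSFA6A* (*Bra035993*) was the least abundant, with no read in ‘FT’ and 24, 10 and 17 reads in *fsm*, which is at least 5.23-fold higher. *HSFA1D* (*Bra035507*), one of the constitutive HSFs that start the heat response in *Arabidopsis*, had 33, 16 and 25 reads in ‘FT’ and 1191, 1000 and 945 in *fsm* (log2 fold change 5.28). Class B HSFs lack the activation domain of class A. Of these, the 3 *HSFB2A* genes had log2 fold changes of 11.47 (*Bra029292*, or 12.33 without F4), 8.75 (*Bra029291*) and 6.40 (*Bra010049*), and *HSFB2B* (*Bra000749*) one of 5.07. The 2 genes described as heat shock factor 4 were at 6.40 (*Bra011735*) and 5.31 (*Bra017800*).

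Partners of small HSPs in refolding were also on the list. Of 20 such chaperone or partner genes, 18 were higher and 2 lower in *fsm*, past a log2 fold change of 1 in size, against 18.7% higher and 18.0% lower among all genes. Their median log2 fold change was 6.23, or 5.86 with genes at 0 in a line set to their bound. *HSP70* (*Bra038734*) had 805, 812 and 806 reads in ‘FT’ and 143475, 140333 and 137680 reads in *fsm*, where no other gene had more reads in any library. Per gene length, its mean RPKM of 2510 was below that of the small HSP genes *Bra018383* and *Bra006137*. The *HSP101* genes, whose products pull proteins out of aggregates, had log2 fold changes of 8.71 (*Bra015922*) and 7.90 (*Bra003807*). A gene for a DNAJ protein, a co-chaperone of HSP70, was at 9.06 (*Bra031127*). Of the genes described as *cpHsc70-1*, of the chloroplast HSP70 type, *Bra018725* had no read in ‘FT’ and 171, 153 and 126 reads in *fsm*, at least 46.1-fold higher. The other, *Bra013786*, was far more abundant, with 1290, 1265 and 1236 reads in ‘FT’ and 23671, 24920 and 24396 in *fsm*. Its read ratio was 17.8 (counting interval 17.2 to 18.4). The 2 lower genes are both described as heat shock protein-related and had few reads, with 11, 19 and 24 in ‘FT’ and none in *fsm* for *Bra038484*, and 23, 10 and 12 in ‘FT’ and 0, 2 and 1 in *fsm* for *Bra012704*.

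**Figure D4:**
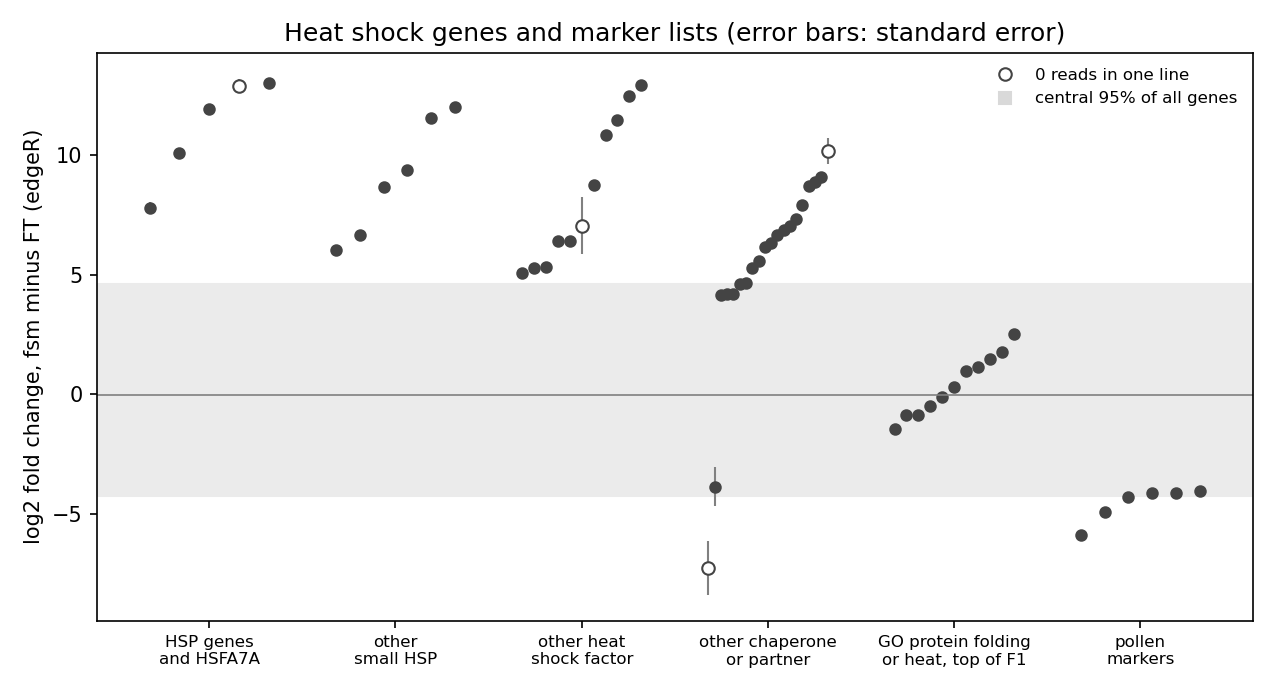
Log2 fold change, *fsm* minus ‘FT’, of each gene in 6 groups, with standard errors from edgeR's fit over all genes. Each point is a gene, open circles are genes with 0 reads in 1 line, and the grey band holds the central 95% of all genes (−4.25 to 4.59). The 5 genes lie at 7.78 to 12.99, the genes with a protein folding or heat term and many reads in F1 at −1.45 to 2.50, and the pollen genes below −4. The groups were chosen in different ways, so their log2 fold changes are not compared. The height of open circles depends on the prior count.

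A group of heat and folding genes that was not drawn from the list was tested as well. It comprised the 11 genes whose Gene Ontology process is protein folding or response to heat among the 1116 genes with the most reads in F1, and it therefore holds genes already abundant in ‘FT’. F1 is also one of the tested libraries, so the choice is not independent of the test and favours genes lower in *fsm*. The calls are therefore set beside those of the 1116 genes, which share this choice. By edgeR's quasi-likelihood test, adjusted by Benjamini and Hochberg's method over all 35616 genes, 4 of the 11 rose (36.4%) and 1 fell (9.09%) at a log2 fold change of at least 1, against 5.65% and 38.4% of the 1116 genes. The median log2 fold change was 0.32 in the 11 genes and −0.67 in the 1116. The largest rise was in *Bra015779* (response to heat), with 6850, 7118 and 7473 reads in ‘FT’ against 47042, 40237 and 44103 in *fsm* (log2 fold change 2.50 ± 0.0603 (SE), adjusted p = 9.73e-34 in edgeR's test). *Bra028952* (response to heat), *Bra001934* (protein folding) and *Bra028948* (response to heat) rose by 1.79, 1.47 and 1.13 on the log2 scale, with adjusted p of 4.13e-29, 7.81e-26 and 1.40e-22. *Bra000265* (protein folding) fell by 1.45 (edgeR adjusted p = 7.86e-25).

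The other 6 genes of this group stayed within a log2 fold change of 1 in either direction. Of these, *Bra028924* was at 0.96 (edgeR adjusted p = 4.05e-19), *Bra011985* at 0.32 (7.59e-06), *Bra033706* at −0.50 (1.05e-09), *Bra030858* at −0.86 (4.00e-18) and *Bra011919* at −0.86 (3.77e-17). *Bra027469* (response to heat) was at −0.11 and did not pass the test (edgeR adjusted p = 0.12). The summed level of the 11 genes was 3841 to 4016 CPM in the ‘FT’ libraries and 6375 to 6886 CPM in the *fsm* libraries. The 5 heat shock genes and this group were chosen in different ways, on fold change and on reads in F1, so their log2 fold changes are not compared.

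The profiles most like the mean profile of the 5 genes over the 6 libraries included other heat shock genes. Likeness was measured as the root-mean-square difference between centred log2(CPM + 0.5) values, over 26732 genes with a mean of at least 1 CPM. The added 0.5 exceeds every CPM of the 5 genes in ‘FT’, the highest being 0.432 for *Bra018216* in F4. The size of their mean profile, and with it the order of the closest genes, therefore depends on this constant. The closest was *Bra018972* (0.0528), described as a hypothetical protein, with no read in ‘FT’ and 3304, 2955 and 3394 reads in *fsm*. It was followed by *Bra003807* (*HSP101*, 0.0697), *Bra026317* (chloroplast small HSP, 0.0936), *Bra029292* (*HSFB2A*, 0.130) and *Bra023741* (0.190). *Bra026084* (0.226), *Bra009294* (*CIPK2*, 0.247), *Bra008920* (class II small HSP, 0.251), *Bra030910* (0.257) and *HSP70* (*Bra038734*, 0.263) completed the 10 closest. Of the 5 genes themselves, *Bra006697* was at 0.0684 from their mean profile and the other 4 at 0.772 to 1.30. On this scale, the differences of those 4 genes between the lines are larger or smaller than the mean. With 3 libraries a line, any gene that differs strongly between the lines has such a profile, and 4413 genes had a Pearson's r above 0.99 with it across the 6 libraries.

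Genes of pollen and genes related to the pistil also differed between the lines. The 6 pollen genes (*VGD1*, *AGP23* and *RABA4D*, which act in pollen) were lower in *fsm* in 6 of 6 cases, with log2 fold changes of −5.89 to −4.06 and a summed level of 2348 to 2443 CPM in ‘FT’ and 123.9 to 136.7 CPM in *fsm*. Of the genes that the study relates to the pistil, *HEC1*, *PFS2* and *TIL* were examined, and *AGAMOUS-LIKE* (*Bra029154*) was not. The 3 examined genes were higher in 3 of 3 cases. Their summed level was 0.538 to 0.706 CPM in ‘FT’ and 65.8 to 81.1 CPM in *fsm*. Most of it came from *TIL*, which the study names temperature-induced lipocalin, with a mean of 69.75 CPM in *fsm*. *HEC1* had a mean of 1.69 CPM and *PFS2* one of 0.730 CPM in *fsm*. Both marker lists were named from these libraries too, so the direction of their genes is no independent evidence. Past a log2 fold change of 1 in size, at an adjusted p of at most 0.001 in edgeR's test, 18.0% of all genes were lower in *fsm* and 18.7% higher. None of the 9 markers was at 0 in every library of a line, and their part in the levels of *Bra018216*, the HSP18 genes and *Bra033468* was not tested.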

How the data were processed

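RNA-Seq data of 3 ‘FT’ and 3 *fsm* libraries were used. SOAP2 served the authors to align clean reads to the Chinese cabbage reference genome. Per gene, they deposited a count of reads, the RPKM made from it, and the percentage of its length that reads cover, which was treated as a score because it slightly exceeds 100 in a few genes. The counts are described as uniquely matched reads, but they sum to more than the mapped reads that the study states for each library, so how reads with several matches were counted is not known. Gene lengths in these files are coding lengths. A gene that a library does not list was taken as 0 reads.

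Lines were compared by edgeR 4.0.16 in R 4.3.3, with TMM normalization, the quasi-likelihood test, no covariates, no filter beyond 1 read in the 6 libraries, edgeR's default prior count and Benjamini-Hochberg adjustment over 35616 genes. A call needed an adjusted p of at most 0.001 and a log2 fold change of 4 or 1 or more in size, as stated. The standard error was derived from the log2 fold change and the F statistic. Read ratios have exact conditional binomial 95% intervals. The alternatives were DESeq2's size factors and test (version 1.42.0), total counts, edgeR's filter on low counts, a prior count of 2, limma 3.58.1 with a pseudocount of 1 or 0.1 on log2 RPKM, leaving out each library, and a replicate block. The fits were tested on simulated data.

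The 5 genes and all lists were chosen with earlier results of these data known. Named genes are the 5 genes, all listed small HSP and HSF genes, the 11 Gene Ontology genes, and the 10 genes nearest in profile. Up to 6 other chaperones at the ends and middle of their range are named as well. Further chaperones were singled out by level, by lack of reads or as another copy after their values were seen. Gene descriptions come from the study's supplementary lists. Replicate numbers did not pair the libraries (correlation of deviations −0.07 for F1 with M1 and 0.07 for F2 with M2, across 26737 genes). Sequences were not used here.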

Additional observations from a re-analysis of the deposited data

How the results depend on the processing

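The 5 genes were higher in *fsm* under every alternative run, and their levels in *fsm* moved by less than the spread between libraries under other scalings and without any 1 library. The size of the log2 fold change depended on how counts near 0 were treated. With a prior count of 2 it was 11.56 for *Bra018216*, 11.60 for *Bra002539*, 9.48 for *Bra006697*, 7.07 for *Bra020295* and 8.87 for *Bra033468*. With limma on log2(RPKM + 1) it was 10.39, 9.36, 7.91, 5.40 and 6.49 in the same order, and on log2(RPKM + 0.1) it was 11.72, 12.04, 9.69, 7.54 and 9.80. The DESeq2 test gave 12.23 for *Bra033468*. Leaving out 1 library gave 11.63 to 12.46 for *Bra018216*, 12.46 to 13.84 for *Bra002539*, 9.84 to 10.48 for *Bra006697*, 7.23 to 8.18 for *Bra020295* and 12.78 to 12.92 for *Bra033468*. A replicate block over the 4 libraries numbered 1 and 2 gave 12.46, 12.43, 9.77, 7.16 and 12.80, with 969 higher and 781 lower genes, and changed no call of the Gene Ontology genes.

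Of all genes, 1038 were higher and 835 lower past an absolute log2 fold change of 4. These counts were 6657 and 6412 past 1, 336 and 161 with limma on log2(RPKM + 1), 691 and 486 with log2(RPKM + 0.1), and 715 and 441 with a prior count of 2. The 4 higher and 1 lower Gene Ontology genes were counted under every alternative run. Of the log2 fold changes of the listed small HSP, HSF and chaperone genes under the alternatives, 110 moved by more than the spread between libraries and 407 did not, and none changed sign. Depth limits the ‘FT’ side, where 41 reads carry the 4 HSP genes.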
